A study of Mus musculus with 6 samples.

Results

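10 genes of the pericentral liver program and of Wnt/β-catenin signaling were followed in primary mouse hepatocytes: *Glul*, *Oat*, *Slc1a2*, *Rhbg*, *Axin2*, *Nkd1*, *Rnf43*, *Znrf3*, *Lgr5* and *Tbx3*. They were chosen by gene name, as genes that depend on β-catenin around the central vein. All 10 were among the 57180 genes of the expression table, and 8 of them were among the 14151 genes with enough counts to be tested. *Nkd1* and *Lgr5* were not. The question was how these genes differed between hepatocytes with and without the Cre-mediated deletion of STING, the adaptor of the cytosolic DNA sensing pathway.

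The hepatocytes came from male LOXP mice, which carry floxed STING alleles, and from liver STING knockout (STINGLKO, labelled KO) mice, offspring of floxed mice and an Albumin-Cre line whose Cre is expressed in hepatocytes. By the general description of the study's animals, they were males of C57BL/6 background, 8 to 10 weeks old. Hepatocytes of both groups were isolated by collagenase perfusion, cultured in medium with dexamethasone and serum, and treated with 0.1 mM palmitic acid, a saturated fatty acid, for 24 h. RNA of 3 libraries per group was sequenced, and no group without palmitic acid is analysed here. The labels do not say whether the 3 libraries of a group came from separate mice, so p-values measure the spread between libraries, which may be in part technical.

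In the liver lobule, hepatocytes next to the central vein receive Wnt ligands and R-spondins from endothelial cells of the vein. Stabilized β-catenin then acts with TCF/LEF factors on a pericentral program that includes glutamine synthetase, which takes up the ammonium that periportal urea synthesis has left. The same signal induces its own inhibitors, such as *Axin2*, *Nkd1*, *Rnf43* and *Znrf3*, and cultured hepatocytes away from the vein no longer receive it in this form.

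Libraries held from 14726983 to 18536985 counted reads, and mitochondrial genes took from 3.86% to 4.65% of them. *Sting1*, the targeted gene, had 19, 16 and 23 counts in LOXP and 24, 23 and 15 in KO, with a log2 fold change of -0.08 (SE, the standard error, 0.30, adjusted p = 0.883 in edgeR's quasi-likelihood test), so a lower level in the KO libraries was not detected in these counts. An RT-PCR of the gene by the study is not analysed here. Which exons were floxed is not given in the sources used here, and counts per gene do not separate exons. Why the *Sting1* counts did not differ was not tested. Directions are therefore those of the libraries labelled KO. Over all genes tested in edgeR, 11.6% fell and 11.5% rose at an adjusted p under 0.05. Of 16 hepatocyte markers, 13 fell and 0 rose (13 and 0 also in DESeq2, 13 of 16 at an unadjusted p under 0.05). Their summed level ran from 15829 to 17257 FPKM in LOXP and from 11854 to 12038 FPKM in KO. The 17 endothelial markers summed to between 42.3 and 48.5 FPKM in LOXP and between 41.0 and 44.8 FPKM in KO, so endothelial RNA, the kind that brings Wnt ligands, was present at a low level in both groups.

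The sequences around the RefSeq start sites of *Slc1a2*, *Oat* and *Glul* are shown because these are the members with a tested difference for which RefSeq promoter windows were at hand. Each runs 5′ to 3′ from 250 bases before the start site to 50 bases after it, on build GRCm38.p6. Capitals mark a 7-base TCF/LEF motif (CTTTGAA or its variants with other last letters, which are CTTTGAT as well as CTTTGTA as well as CTTTGTT, searched on both strands). The positions of genes in the expression table are on GRCm39 and differ from these.

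Slc1a2 (chr2:102706188-102706487, + strand): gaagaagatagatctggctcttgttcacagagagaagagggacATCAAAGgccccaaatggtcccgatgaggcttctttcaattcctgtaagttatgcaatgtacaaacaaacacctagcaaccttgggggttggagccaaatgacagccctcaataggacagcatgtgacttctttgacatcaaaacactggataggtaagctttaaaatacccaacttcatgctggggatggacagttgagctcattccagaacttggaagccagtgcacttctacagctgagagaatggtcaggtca
Oat (chr7:132576349-132576648, − strand): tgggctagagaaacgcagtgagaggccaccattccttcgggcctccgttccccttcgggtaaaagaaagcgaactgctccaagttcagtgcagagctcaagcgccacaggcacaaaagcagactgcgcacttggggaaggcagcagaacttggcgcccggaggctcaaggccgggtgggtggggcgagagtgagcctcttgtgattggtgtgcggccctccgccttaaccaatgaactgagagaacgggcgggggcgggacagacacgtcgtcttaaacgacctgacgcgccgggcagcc
Glul (chr1:153899679-153899978, + strand): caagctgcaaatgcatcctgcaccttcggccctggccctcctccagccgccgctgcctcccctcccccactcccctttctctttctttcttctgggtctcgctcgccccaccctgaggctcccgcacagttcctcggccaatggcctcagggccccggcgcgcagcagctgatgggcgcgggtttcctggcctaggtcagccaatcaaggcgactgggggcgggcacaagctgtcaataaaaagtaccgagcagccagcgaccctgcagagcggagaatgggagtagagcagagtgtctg

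Windows were held for 6 of the 10 members, *Glul*, *Oat*, *Slc1a2*, *Axin2*, *Nkd1* and *Rnf43*, the last with 2 start sites, which gives 7 windows. The *Slc1a2* window was the only one of the 7 with the motif, as ATCAAAG, which begins 207 bases before the start site. Of all 32851 windows of this length in the RefSeq table, 5544 (16.9%) hold it. This *Slc1a2* start site lies inside the gene, 47779 bases from its 5′-most start in the GENCODE annotation of the same build. GC content was 45.7% in the *Slc1a2* window, 61.7% in that of *Oat* and 64.3% in that of *Glul*, with a median of 52.7% over all windows. A match of these letters is a description and not a binding site.

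Of the 8 tested members, 2 fell in the libraries labelled KO (*Slc1a2* and *Glul*), 2 rose (*Oat* and *Znrf3*) and 4 did not pass the test (*Rhbg*, *Axin2*, *Rnf43* and *Tbx3*). The test was edgeR's two-sided quasi-likelihood test adjusted by the Benjamini-Hochberg method over 14151 genes and a threshold of 0.05, by which 11.6% of all tested genes were lower and 11.5% higher. DESeq2 called the same numbers of members, 2 lower and 2 higher. Lower and higher members thus came to 25.0% of the 8 each, which is 2 genes in either direction. The median log2 fold change of the 8 was 0.12, and that of all tested genes was -0.00211. The 8 members therefore had no common direction in these libraries. The plot by library gives the 10 genes as normalized CPM (counts scaled to library size with edgeR's TMM factors), which is not comparable between genes because it is not divided by gene length.

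**Figure D1:**
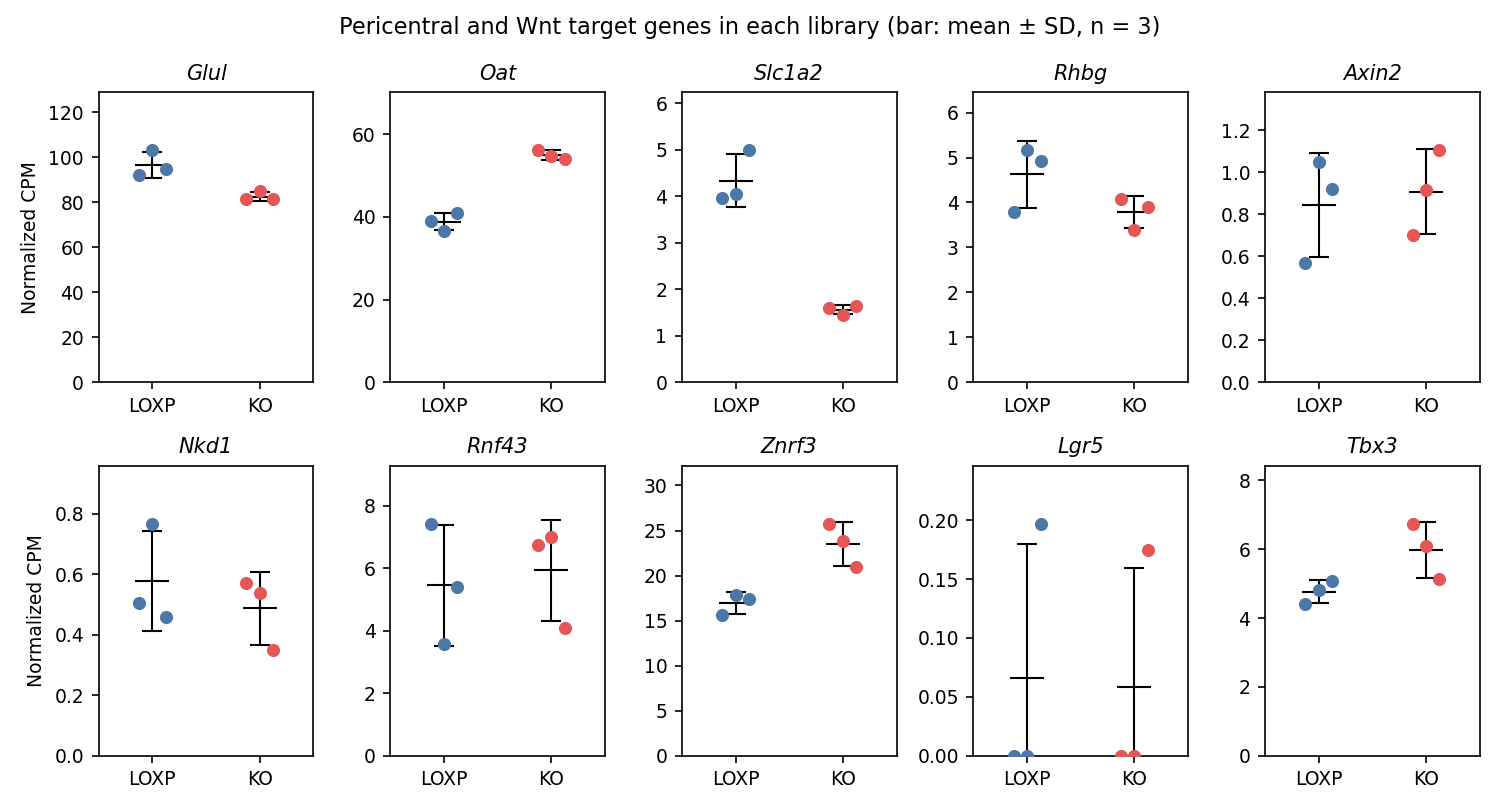
Normalized CPM of each of the 10 genes (vertical axis, from 0) in the 3 LOXP and 3 KO libraries (points), with bars for the mean ± SD (n = 3). *Glul* and *Slc1a2* lie lower in all 3 KO libraries, *Oat*, *Znrf3* and *Tbx3* lie higher in all 3, and the other 5 genes overlap between the groups.

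*Slc1a2* encodes GLT-1, a high-affinity glutamate transporter of the plasma membrane. It showed the largest difference among the 8 tested members. The table places it on chromosome 2 from 102489004 to 102621129 (GRCm39, ENSMUSG00000005089). It had 63, 58 and 76 counts in LOXP libraries 1, 2 and 3 and 25, 27 and 28 counts in KO libraries 1, 2 and 3. In normalized CPM these were 3.97, 4.05 and 5.00 against 1.59, 1.45 and 1.63. Every KO library was below every LOXP library, and the group means were 4.34 ± 0.571 CPM in LOXP and 1.56 ± 0.0922 CPM in KO (SD, n = 3). *Slc1a2* fell by 1.47 on the log2 scale (SE 0.20, 95% confidence interval from -1.92 to -1.03, adjusted p = 0.00136 in edgeR's quasi-likelihood test), which is 2.78-fold lower. It passed the threshold under all 15 alternatives. Its level was low in both groups, with a mean of 0.285 FPKM in LOXP and 0.105 FPKM in KO, where FPKM is the count divided by gene length and by the library's counted reads.

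*Glul* encodes glutamine synthetase, which joins ammonium to glutamate and marks the hepatocytes next to the central vein. The gene lies on chromosome 1 from 153775690 to 153785469 (ENSMUSG00000026473). Its normalized CPM was 92.1, 103 and 94.7 in the LOXP libraries and 81.3, 84.9 and 81.2 in the KO libraries, from between 1278 and 1575 counts per library. The groups did not overlap, the nearest libraries being 84.9 CPM in KO and 92.1 CPM in LOXP, and the group means were 96.7 ± 5.75 and 82.5 ± 2.07 (SD, n = 3). *Glul* fell by 0.23 on the log2 scale (SE 0.066, 95% confidence interval from -0.38 to -0.08, adjusted p = 0.0389 in edgeR's quasi-likelihood test), or by 14.7%. This call rested on the setting. It passed under 8 of 16 alternatives, and in edgeR's test the adjusted p was 0.12 without LOXP replicate 2, 0.0738 without LOXP replicate 3, 0.110 without KO replicate 1, 0.0867 without KO replicate 2 and 0.113 without KO replicate 3. The microRNA gene *Mir8114* is annotated at the start of *Glul* and had counts of its own, 1, 57 and 63 in the LOXP libraries and 53, 60 and 57 in the KO libraries. LOXP library 1 thus had 1 where the other 5 libraries had at least 53. When these counts, which come to 3.37% of the *Glul* counts, were added to those of *Glul*, the log2 fold change was -0.21 and edgeR's adjusted p was 0.0636. In a bulk sample, fewer *Glul*-expressing cells and less *Glul* RNA per cell cannot be told apart, and this holds for every gene here.

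*Oat* encodes ornithine aminotransferase, the mitochondrial enzyme that converts ornithine to glutamate semialdehyde, and is a neighbour of *Glul* in the pericentral zone. It lies on chromosome 7 from 132159207 to 132178127 (ENSMUSG00000030934). Its counts were 621, 525 and 622 in LOXP and 883, 1017 and 927 in KO. The lowest KO library was well above the highest LOXP library, with normalized CPM of 39.1, 36.7 and 40.9 against 56.2, 54.8 and 54.0. *Oat* rose from 38.9 ± 2.13 to 55.0 ± 1.12 CPM (SD, n = 3), a log2 fold change of 0.50 (SE 0.069, 95% confidence interval from 0.34 to 0.66, adjusted p = 0.00165 in edgeR's quasi-likelihood test), or 1.41-fold. It passed under all 15 alternatives, with adjusted p-values from 2.53e-06 to 0.00954. *Oat* overlaps the annotated span of *Fgfr2*, which had between 25 and 49 counts in the same libraries.

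*Glul* lay lower and *Oat* higher in the same KO libraries, though the call of *Glul* passed under only 8 of 16 alternatives. Per length, the ratio of *Glul* to *Oat* was 1.29, 1.54 and 1.27 in the LOXP libraries and 0.791, 0.847 and 0.823 in the KO libraries. *Glul* was the higher of the pair in each LOXP library and the lower in each KO library. The mean ratio was 1.36 ± 0.151 against 0.820 ± 0.0278 (SD, n = 3), and the exact two-sided permutation test gave p = 0.1, the smallest that 3 libraries against 3 allow. Each gene already separated the groups, in opposite directions, so this p was fixed beforehand and is no further result.

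*Rhbg* encodes a Rhesus-family ammonium transporter of the hepatocyte membrane, found like *Glul* in pericentral cells. It lies on chromosome 3 from 88150181 to 88162016 (ENSMUSG00000104445). Its normalized CPM was 3.78, 5.17 and 4.93 in LOXP and 4.07, 3.39 and 3.90 in KO, and LOXP library 1 lay among the KO libraries. The log2 fold change was -0.29 (SE 0.18, 95% confidence interval from -0.71 to 0.13, adjusted p = 0.305 in edgeR's quasi-likelihood test). The interval holds both no difference and a decrease of the size seen for *Glul*.

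5 members belong to the Wnt signal itself: *Znrf3* and *Rnf43*, membrane E3 ligases that remove Frizzled receptors from the cell surface, *Axin2*, a scaffold of the β-catenin destruction complex, *Nkd1*, which binds Dishevelled, and *Lgr5*, a receptor for R-spondins. Of these, 3 were tested, of which 1 rose and 0 fell in edgeR's test (1 and 0 in DESeq2, and 1 of 3 at an unadjusted p under 0.05). Over all tested genes 11.5% rose and 11.6% fell, and 3 genes are too few to be told from these shares. *Znrf3*, on chromosome 11 from 5226324 to 5394847 (ENSMUSG00000041961), had 247, 256 and 264 counts in LOXP and 405, 442 and 359 in KO. In normalized CPM these were 15.6, 17.9 and 17.4 against 25.8, 23.8 and 20.9. The groups did not overlap, although the KO libraries were more spread. *Znrf3* rose from 16.9 ± 1.21 to 23.5 ± 2.45 CPM (SD, n = 3), a log2 fold change of 0.47 (SE 0.11, 95% confidence interval from 0.23 to 0.72, adjusted p = 0.0151 in edgeR's quasi-likelihood test), or 1.39-fold. The adjusted p was 0.0571 without KO replicate 1 and 0.0547 without KO replicate 2, and it passed under the other 13 of 15 alternatives.

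*Rnf43*, the paralog of *Znrf3*, lies on chromosome 11 from 87553548 to 87626365 (ENSMUSG00000034177). It varied widely between replicates, with 7.44, 3.56 and 5.39 CPM in LOXP and 6.75, 7.0 and 4.08 CPM in KO. Both groups spanned nearly the same range. Its log2 fold change was 0.12 (SE 0.29, 95% confidence interval from -0.55 to 0.79, adjusted p = 0.818 in edgeR's quasi-likelihood test), which turned to -0.11 without LOXP replicate 2 and to -0.02 without KO replicate 2. The *Rnf43* interval includes the *Znrf3* value, so a difference in response between the paralogs was not shown. Their FPKM ratio, *Znrf3* over *Rnf43*, overlapped between the groups (3.5 ± 1.5 in LOXP and 4.18 ± 0.916 in KO, SD, n = 3, exact two-sided permutation p = 0.4). The noncoding gene *1110028F11Rik* overlaps *Rnf43* and had between 11 and 25 counts.

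The members most often read as direct reporters of Wnt signaling were at the edge of detection. *Axin2*, on chromosome 11 from 108811175 to 108841609 (ENSMUSG00000000142), had 9, 15 and 14 counts in LOXP and 11, 17 and 19 in KO. The ranges overlapped, and the log2 fold change was 0.12 (SE 0.35, 95% confidence interval from -0.68 to 0.91, adjusted p = 0.848 in edgeR's quasi-likelihood test). *Nkd1*, on chromosome 8 from 89247982 to 89321512 (ENSMUSG00000031661), had 8, 11 and 7 counts in LOXP and 9, 10 and 6 in KO, too few to be tested. Pooled over the libraries of a group and scaled to library size, the ratio of KO to LOXP was 1.09 for *Axin2* (exact 95% interval from 0.697 to 1.72) and 0.849 for *Nkd1* (from 0.470 to 1.53), where the intervals cover counting error only. The intervals leave out the spread between libraries and are not limits of detection. Neither a difference nor its absence was thus shown for *Axin2* and *Nkd1*. *Lgr5*, on chromosome 10 from 115286216 to 115423685 (ENSMUSG00000020140), had 0, 0 and 3 counts in LOXP and 0, 0 and 3 in KO. Both groups were at or under the floor of 3 counts per library, and no fold is given.

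*Tbx3* encodes a T-box transcription factor that β-catenin induces in liver. It lies on chromosome 5 from 119808734 to 119822789 (ENSMUSG00000018604). Its normalized CPM was 4.41, 4.82 and 5.06 in LOXP and 6.75, 6.09 and 5.12 in KO. The 3 KO libraries lay above the 3 LOXP libraries, the closest pair being 5.12 and 5.06 CPM. The log2 fold change was 0.33 (SE 0.16, 95% confidence interval from -0.04 to 0.69, adjusted p = 0.180 in edgeR's quasi-likelihood test) and passed under 0 of 15 alternatives, among them DESeq2. Its unadjusted p was 0.0721.

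Counting libraries without a model, 2 of the 8 tested members had every KO library below every LOXP library and 3 had every KO library above. Over all tested genes the shares were 20.3% below and 20.4% above. For single genes, the exact two-sided permutation test of 3 libraries against 3 gave p = 0.1 for *Slc1a2*, *Glul*, *Oat*, *Znrf3* and *Tbx3*, 0.3 for *Rhbg* and 0.7 for *Axin2* and *Rnf43*. No member met the study's criteria of an adjusted p under 0.05, an absolute log2 fold change above 1 and a group mean above 1 FPKM, by which 1.49% of all tested genes were lower and 0.558% higher. *Slc1a2* was the only member past the fold and missed on its level. The count was 0 in edgeR and in DESeq2, and 0 also at an unadjusted p under 0.05.

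**Figure D2:**
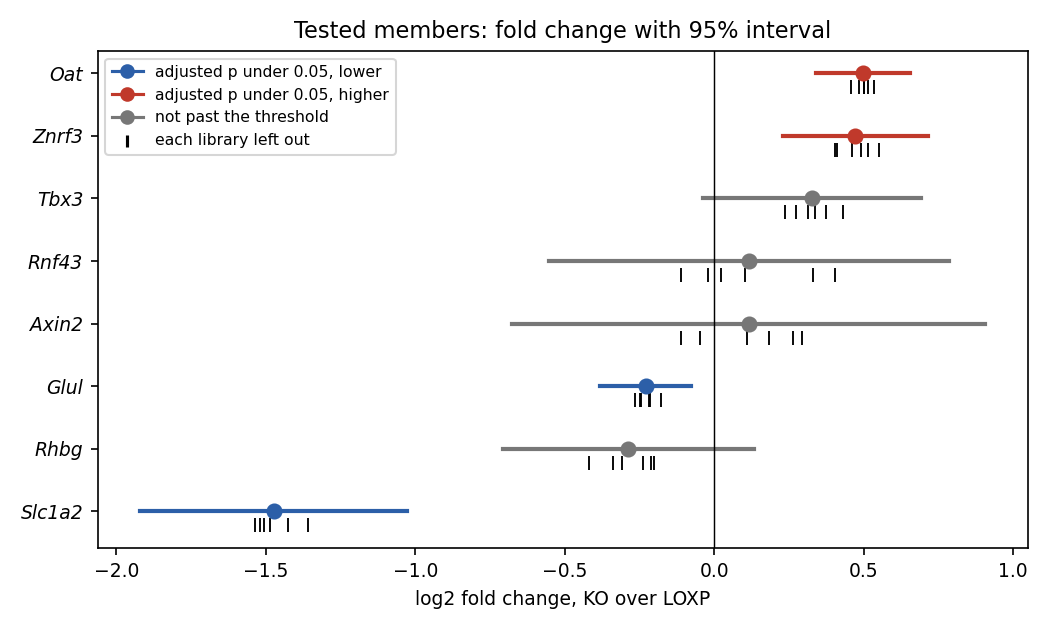
Log2 fold change of KO over LOXP for the 8 tested members (horizontal axis) with the 95% confidence interval (bars) from edgeR, and below each bar the value with each of the 6 libraries left out (ticks). *Slc1a2*, *Glul*, *Oat* and *Znrf3*, and also *Rhbg* and *Tbx3*, which did not pass, stay on their side of 0 in every such fit. *Rnf43* and *Axin2* cross it.

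Divided by gene length, the 10 genes spanned a wide range. *Glul* had the highest mean in LOXP with 21.0 ± 0.951 FPKM, followed by *Oat* with 15.5 ± 1.01 FPKM (SD, n = 3). *Oat* was highest in KO with 22.4 ± 0.438 FPKM, followed by *Glul* with 18.4 ± 0.294 FPKM. The libraries of this pair did not overlap in either group. *Rhbg* and *Znrf3* were next, at 2.36 and 1.54 FPKM in LOXP and 1.98 and 2.19 FPKM in KO, and their libraries overlapped in KO but not in LOXP. The other 6 genes had a mean under 1 FPKM in both groups. *Rnf43* (0.489 and 0.543 FPKM in LOXP and KO) and *Tbx3* (0.339 and 0.437 FPKM) overlapped in each group, and *Slc1a2* overlapped *Tbx3* in LOXP but *Axin2* in KO. *Axin2* was at 0.0969 and 0.107 FPKM, *Nkd1* at 0.0769 and 0.0666 FPKM, and *Lgr5* at 0.00491 and 0.00449 FPKM.

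**Figure D3:**
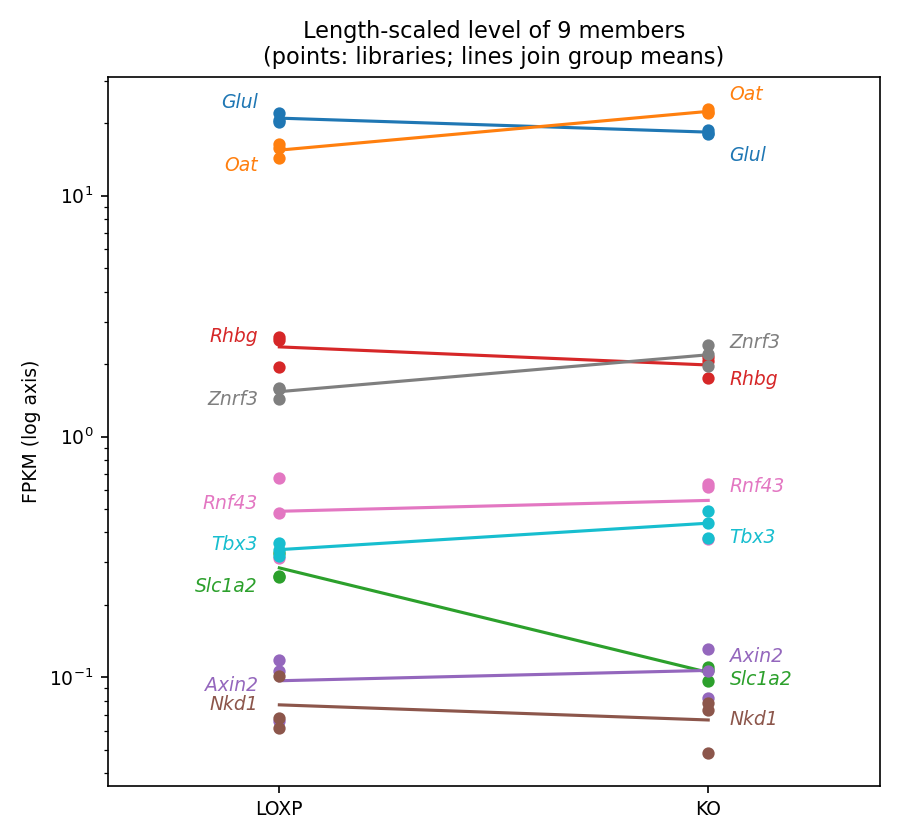
FPKM of 9 members (log axis) in the LOXP and KO libraries (points), with lines between group means. *Lgr5*, with 0 counts in 4 of 6 libraries, is left out. *Glul* and *Oat* exchange places, as do *Rhbg* and *Znrf3* and, near 0.1 FPKM, *Slc1a2* and *Axin2*, and the libraries of the last 2 pairs overlap in KO.

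The rest of the Wnt pathway was read from lists by role, 112 genes with a row in the table, of which 63 were tested, 5 fell and 8 rose in edgeR's test. Their median log2 fold change was 0.05. The shares, 7.94% lower and 12.7% higher, are to be read beside the 11.6% and 11.5% of all tested genes. The number that fell was 3 without LOXP replicate 1, KO replicate 1 or KO replicate 2. Of 25 ligands, R-spondins and secretion genes, 9 had no count in any library and 6 were tested, none of which passed in edgeR or DESeq2 (0 and 0, with 1 at an unadjusted p under 0.05). *Wnt2*, a ligand of the liver's endothelial cells, had 3, 2 and 0 counts in LOXP and 1, 5 and 5 in KO. *Wnt9b*, another, had 0 in each LOXP library and 0, 3 and 0 in KO. *Rspo3*, the R-spondin of the central vein, had 24, 18 and 12 counts in LOXP and 12, 24 and 17 in KO (log2 fold change -0.21, adjusted p = 0.704 in edgeR's test). These 3 genes thus had at most 24 counts in a library.

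Of 12 tested receptors, 1 (8.33%) fell and 0 rose in edgeR's test, beside 11.6% and 11.5% of all tested genes. DESeq2 gave 1 and 0, and 6 of the 12 had an unadjusted p under 0.05 in edgeR's test. *Lgr4*, the R-spondin receptor of hepatocytes, was the only one that passed. It fell by 0.31 on the log2 scale (SE 0.081, adjusted p = 0.0271 in edgeR's quasi-likelihood test), from 64.5, 59.3 and 56.3 CPM in LOXP to 47.4, 46.1 and 52.1 CPM in KO. Its adjusted p was 0.0652 without LOXP replicate 1, 0.0531 without LOXP replicate 2, 0.0838 without KO replicate 1 and 0.0990 without KO replicate 2. With all 6 libraries it was 0.0637 in limma-trend on log2(FPKM + 1) and 0.0619 on log2(FPKM + 0.1), and *Lgr4* passed under 9 of 15 alternatives. Over the 6 libraries *Lgr4* averaged 8.91 FPKM, where its relative *Lgr5* averaged 0.00470 FPKM. *Axin1* likewise averaged 20.6 FPKM against 0.102 FPKM for *Axin2*.

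In edgeR's test 11.6% of all tested genes fell and 11.5% rose. Of 19 tested genes of Dishevelled, the destruction complex and β-catenin, 3 (15.8%) rose and 0 fell (3 and 0 in DESeq2, 6 at an unadjusted p under 0.05 in either direction). The 3 were the kinase genes *Gsk3a* (log2 fold change 0.33, adjusted p = 0.00513) and *Csnk1e* (0.45, adjusted p = 0.00895), and *Usp34*, a deubiquitinase of Axin (0.29, adjusted p = 0.0125, all in edgeR's test). *Ctnnb1*, which encodes β-catenin, had a log2 fold change of 0.06 (adjusted p = 0.777) and *Axin1* one of 0.15 (adjusted p = 0.133). A difference in β-catenin mRNA was thus not shown. Of 16 nuclear partners, 2 (12.5%) fell and 3 (18.8%) rose, beside 11.6% and 11.5% of all tested genes. *Tcf7*, a TCF factor, rose by 0.88 (adjusted p = 4.45e-04), *Tcf7l1*, a repressive TCF factor, fell by 0.57 log2 units (adjusted p = 0.00624), and *Tcf7l2*, the TCF factor most studied in hepatocytes, had a log2 fold change of -0.01 (adjusted p = 0.983). *Hdac1*, a histone deacetylase, was 0.94 higher log2 units (adjusted p = 4.69e-04 in edgeR's test), but its near-identical copy *Hdac1-ps* had more counts than *Hdac1* in each library, so this value is uncertain.

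Of 18 general Wnt target genes outside the 10, 9 were tested, of which 2 (22.2%) fell and 3 (33.3%) rose. The shares of all tested genes were 11.6% and 11.5%. *Fosl1*, an AP-1 factor, rose by 0.96 (adjusted p = 4.16e-04), *Tcf7* again by 0.88, and *Sox9*, a factor of progenitor and bile duct cells, fell by 0.87 log2 units (adjusted p = 4.08e-04 in edgeR's test). *Sp5*, a close reporter of β-catenin, had 1, 0 and 1 counts in LOXP and 0 in each KO library. *Notum*, a secreted Wnt inhibitor, had 4, 10 and 1 counts in LOXP and 5, 10 and 3 in KO. It was 1 of 19 inhibitor genes in the table, of which 2 were tested and neither passed (0 in edgeR and in DESeq2, 0 at an unadjusted p under 0.05).

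Of the other genes of the pericentral zone, 29 were tested, which leaves out the 10 genes above. Of these, 10 (34.5%) fell and 3 (10.3%) rose in edgeR's test, beside 11.6% and 11.5% of all tested genes. The median log2 fold change of the 29 was -0.22, and DESeq2 gave 8 and 3. The number that fell was 9 without LOXP replicate 1, 7 without LOXP replicate 2, 5 without LOXP replicate 3, 6 without KO replicate 1, 7 without KO replicate 2 and 8 without KO replicate 3. *Ahr*, the aryl hydrocarbon receptor, fell by 1.02 log2 units (adjusted p = 8.81e-05), and *Cyp1a2*, its cytochrome P450 target, fell by 0.52 (adjusted p = 0.00595). *Gulo*, which makes vitamin C, fell by 0.39 (adjusted p = 0.0163, and 0.0572 without LOXP replicate 3). *Cyp2e1*, the most abundant P450 of the zone, had 433, 350 and 367 CPM in LOXP and 416, 389 and 363 CPM in KO (log2 fold change 0.02, adjusted p = 0.885), and *Lect2*, a secreted β-catenin target, had a log2 fold change of 0.31 (adjusted p = 0.0791, all in edgeR's test). *Cyp2a5* (-0.67) and *Cyp2c37* (0.48), called in opposite directions, have close paralogs, and reads could be split among them.

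Among genes of the opposite, periportal zone, 21 of 32 tested (65.6%) fell and 5 (15.6%) rose, beside 11.6% and 11.5% of all tested genes. The median log2 fold change of the 32 was -0.55. Without the genes that are also hepatocyte markers, 17 of 28 fell and 5 rose, with a median of -0.48. *Cps1*, the first enzyme of the urea cycle, fell by 1.24 log2 units (adjusted p = 2.66e-05), *Cdh1*, the epithelial cadherin, by 1.11 (adjusted p = 2.08e-05), *Hsd17b13*, a lipid droplet protein, by 1.63 (adjusted p = 5.59e-06) and *Itih4*, a secreted acute phase protein, by 1.44 (adjusted p = 1.20e-06 in edgeR's test). *Cyp2f2*, a periportal P450, fell by 0.64 (adjusted p = 5.61e-04), and *Gls2*, the liver glutaminase that opposes *Glul*, had a log2 fold change of -0.09 (adjusted p = 0.50). The medians of both zonation lists were thus below 0. Their summed levels, which the most abundant genes set, did not follow the medians throughout. The sums and the medians are not on the same scale, since FPKM leaves out the TMM factors that the fold changes include. These factors ran from 0.972 to 0.999 in LOXP and from 1.001 to 1.023 in KO, and dividing by them would lower KO sums relative to LOXP sums. The other pericentral genes summed to between 745 and 786 FPKM in LOXP and between 801 and 814 FPKM in KO. The periportal genes summed to between 4081 and 4457 FPKM in LOXP and between 4012 and 4145 FPKM in KO, and those that are not hepatocyte markers to between 2231 and 2384 FPKM in LOXP and between 2666 and 2794 FPKM in KO. Markers of hepatocytes fell in the same libraries, with a median log2 fold change of -0.59 over 16 genes, and the part of that in these counts was not tested.

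Around *Glul*, *Oat*, *Slc1a2* and *Rhbg*, other genes of glutamine, glutamate, ornithine and ammonium handling were mixed. Of 27 tested, 5 (18.5%) fell and 7 (25.9%) rose, beside 11.6% and 11.5% of all tested genes. The median log2 fold change of the 27 was 0.10. The number that rose was 4 without LOXP replicate 2, 3 without LOXP replicate 3, 2 without KO replicate 2 and 3 without KO replicate 3. *Slc1a5*, a glutamine transporter of the same family as *Slc1a2*, rose from 5.10, 7.19 and 7.49 CPM in LOXP to 15.1, 14.4 and 19.0 CPM in KO. Its log2 fold change was 1.30 (SE 0.18, adjusted p = 0.00146 in edgeR's quasi-likelihood test), opposite in sign to that of *Slc1a2*. *Gpt2*, the mitochondrial alanine transaminase, fell by 0.69 log2 units (adjusted p = 2.45e-04).

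**Figure D4:**
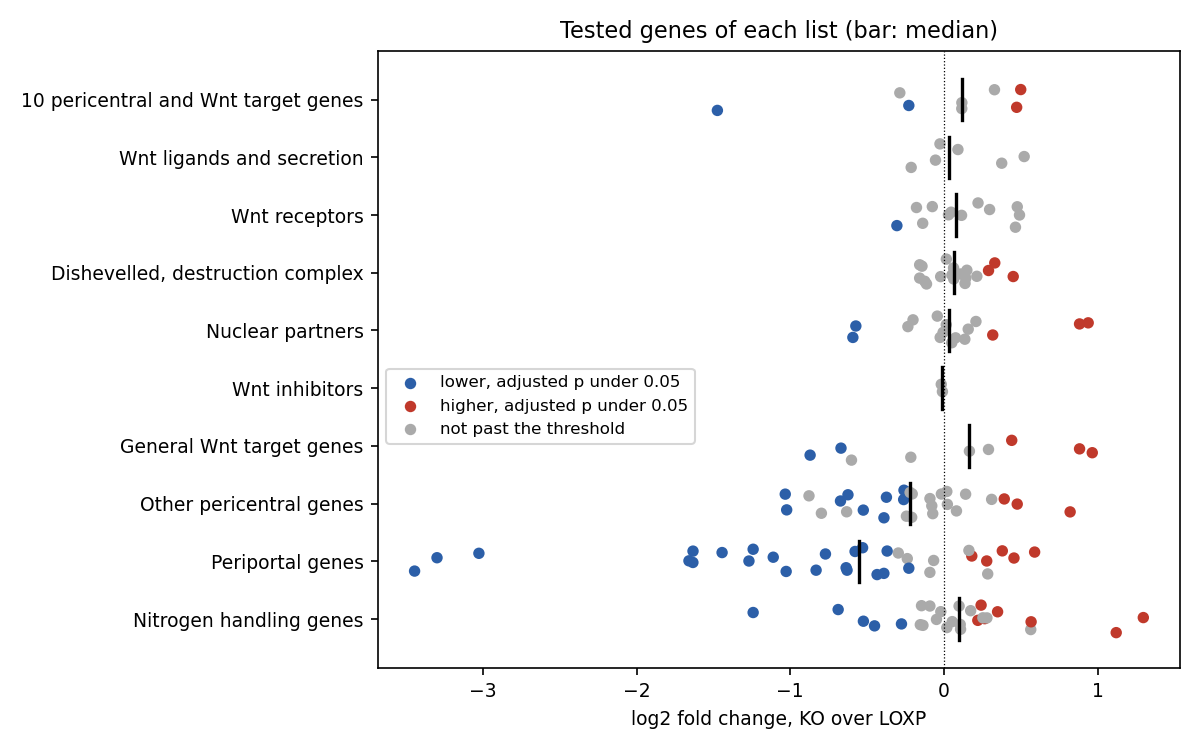
Log2 fold change of KO over LOXP (horizontal axis) of each tested gene (points) in the 10-gene list, the 6 Wnt lists, the other pericentral genes, the periportal genes and the nitrogen handling genes, with a bar at each median. The medians of the 6 Wnt lists lie between -0.01 and 0.17, that of the other pericentral genes at -0.22 and that of the periportal genes at -0.55.

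Markers of other liver cells were measured beside these values. Their counts are to be read beside the 11.6% of all tested genes that fell and the 11.5% that rose in edgeR's test. Of 16 tested endothelial markers, 1 fell and 0 rose (1 and 0 in DESeq2, 3 at an unadjusted p under 0.05), and of the most abundant, *Cdh5* had a log2 fold change of 0.01 and *Lyve1* one of -0.20. Of 15 macrophage markers, 2 fell, among them *Cd68* by 0.87 on the log2 scale, and 0 rose (2 and 1 in DESeq2, 3 at an unadjusted p under 0.05), while *Lyz2* had a log2 fold change of 0.18. The 16 listed macrophage markers summed to between 68.9 and 86.1 FPKM in LOXP and between 56.1 and 64.9 FPKM in KO. *Cd68* alone had a mean of 37.5 FPKM in LOXP and 21.1 FPKM in KO, so the difference in these sums is largely that of 1 gene. Stellate cell markers summed to between 22.0 and 24.5 FPKM in LOXP and between 24.2 and 26.0 FPKM in KO, and of 13 tested, 0 fell and 1 rose in edgeR's test (0 and 1 in DESeq2, 2 at an unadjusted p under 0.05). The one that rose was *Tagln*, an actin-binding protein, at a log2 fold change of 0.53 (adjusted p = 0.0195 in edgeR's test), named after its value was seen, while the most abundant, *Ecm1* and *Sparc*, had log2 fold changes of -0.13 and -0.04. Markers of bile duct cells summed to between 124 and 145 FPKM in LOXP and between 65.9 and 77.3 FPKM in KO. *Cldn4* made up most of these sums, with a mean of 111 FPKM in LOXP and 55.8 FPKM in KO. The untested markers of the list, *Krt7*, *Epcam*, *Cftr* and *Ggt1*, had 18, 43, 9 and 6 counts over all 6 libraries. *Cldn4*, a tight junction gene and the most abundant listed marker of bile duct cells, was tested and fell by 1.03 log2 units (adjusted p = 2.81e-04 in edgeR's test). Of 6 tested bile duct markers, 3 fell and 1 rose in edgeR's test (3 and 0 in DESeq2). The others that fell were *Sox9*, described above, and *Spp1*, osteopontin, at -2.04 (adjusted p = 3.88e-05), and *Krt19*, a keratin of bile duct cells, rose by 0.82 (adjusted p = 0.0479), the last pair of genes named after their values were seen. No listed marker of these cells was at 0 in every library. The part of these cells in the values of the 10 genes was not tested.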

How the data were processed

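RNA of 6 libraries of primary hepatocytes was analysed, LOXP and KO with 3 each, grouped by the sample titles. Per the submitters' processing notes, the authors used fastp, HISAT2, StringTie and edgeR with build GRCm39. The counting tool, strand setting and annotation release are not given in the sources used here. The authors deposited 1 table with a read count, whole and without normalization, and an FPKM value for each gene and library. All 12 value columns were used, and the number of other columns of per-sample values was 0. The FPKM values are the counts scaled by the counted reads of the library and by a length that is the same in all libraries, which was checked on 12160 genes, whose implied length differed between libraries by at most 0.00418%.

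The test was run with edgeR 4.0.16 under R 4.3.3: filterByExpr by group (minimum count 10), TMM factors and the quasi-likelihood test, adjusted by Benjamini-Hochberg over all genes tested. The biological coefficient of variation was 0.118. Between replicates, chi-square divided by its degrees of freedom ran from 7.66 to 16.3, above counting noise. Scripts were tested on simulated data. Exact permutation tests (scipy 1.17.1) of 3 libraries against 3 allow no p under 0.1. Pooled ratios have exact conditional Poisson intervals, which cover counting error only.

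The members and gene lists were chosen with earlier results of these data known. All members are named. From each other Wnt, zonation and nitrogen list, a set of well-known genes was named whatever their values, with up to 3 called genes of the smallest adjusted p, and from each cell marker list the 2 most abundant genes. *Hdac1-ps* and the genes that overlap members were chosen with their values in view. Alternatives were RLE and upper-quartile factors, DESeq2 1.42.0 (no adjusted p for 10 genes), the likelihood ratio test, at least 1 count in any library, a replicate block, at least 10 counts in every library, limma-trend (limma 3.58.1) on log2(FPKM + 1) and log2(FPKM + 0.1), and each library left out. Promoter sequences are from RefSeq on GRCm38.p6, matched by symbol, for 6 of 10 members. Python 3.11.15 with matplotlib 3.10.9 drew the figures.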

Additional observations from a re-analysis of the deposited data

How the results depend on the processing

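Among the 10 genes, the number that fell was 2 and became 1 with the likelihood ratio test, 1 with every gene of at least 1 count and 1 with the *Mir8114* counts added to *Glul*, an alternative chosen after seeing the data. Beyond the tests' own construction, the cause was not tested. It lay between 1 and 2 with each library left out. The number that rose lay between 1 and 2 with each library left out. *Glul* and *Znrf3* account for these losses. On the log2(FPKM + 1) scale the value for *Slc1a2* was -0.22, since a pseudocount of 1 exceeds its FPKM. With each library left out, the counts lay between 3 and 5 for other Wnt genes that fell, between 5 and 9 for other pericentral genes that fell, between 2 and 7 for nitrogen genes that rose, and, over all genes, between 1052 and 1515 lower and between 922 and 1510 higher. These fits have fewer libraries, and where an arm keeps 2 libraries the spread is pooled with the other arm. The nitrogen genes that rose numbered 4 with every gene of at least 1 count. By the study's criteria, 93 genes were lower and 38 higher with limma-trend on log2(FPKM + 1), where the pseudocount shrinks folds of low genes.

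With the replicate number as a replicate block, 2 of the 10 genes fell and 2 rose, and 5 other pericentral genes rose in place of 3 (the cause was not tested). The labels state no pairing, and the numbers were not taken to pair the libraries. Deviations of same-numbered libraries correlated at 0.12, 0.0834 and 0.0134 over 14151 genes, and those of different-numbered libraries at between -0.13 and 0.0459. These values do not decide whether the libraries were paired.

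Signs turned for values near 0 that passed no test, with the cause not tested. With libraries left out, values ran from -0.11 to 0.30 for *Axin2*, -0.11 to 0.40 for *Rnf43*, -0.0770 to 0.18 for *Ctnnb1*, -0.13 to 0.0658 for *Tcf7l2*, -0.44 to 0.00267 for *Rspo3*, -0.0385 to 0.12 for *Cyp2e1*, -0.0715 to 0.0788 for *Cdh5*, -0.17 to 0.0513 for *Sparc* and -0.26 to 0.11 for *Sting1*. *Tcf7l2* was 0.00358 in DESeq2, 0.00767 on log2(FPKM + 1) and 0.0194 on log2(FPKM + 0.1) in limma-trend. *Sparc* was 0.00373 and 0.00640 on the same scales, and *Cdh5* was -0.00263 with upper-quartile factors. Depth limits *Axin2*, *Nkd1* and *Lgr5*, with at most 19 counts in a library.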
